A study of Mus musculus with 11 samples.

Results

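Genes of Wnt reception were followed through the pubertal mammary epithelium of the mouse: the Frizzled receptors Fzd1, Fzd2, Fzd4, Fzd6, Fzd7 and Fzd8, the coreceptor Lrp6, and the secreted proteins Sfrp1, Dkk3 and Wif1. They were taken by symbol as a set of named genes, and make up 10 of the 27179 gene identifiers counted. The 11 bulk RNA-seq libraries came from C57BL/6 females aged 5 weeks that carried an E-cadherin-GFP allele, whose fluorescence guided dissection of terminal end buds (TEBs) and ducts. Cells negative for lineage markers and positive for CD29 and CD24 were then separated into luminal cells, with high GFP, and basal cells, with low GFP. There were 3 libraries each of basal duct, basal TEB and luminal TEB cells and 2 of luminal duct cells, with no treatment labelled, and each was made from a pool of at least 2 mice. TEBs are the bulbous growing tips that lead ductal elongation at puberty, and the ducts are the tubes left behind them.

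Wnt proteins bind a Frizzled receptor in the cell membrane together with Lrp5 or Lrp6. The occupied complex recruits Dishevelled and inactivates the complex of Apc, Axin and Gsk3 that otherwise destroys beta-catenin. Secreted inhibitors act outside the cell: Wif1 and Sfrp1 bind Wnt ligands themselves, whereas the classical Dickkopf proteins block Lrp5 and Lrp6, and Dkk3 is a divergent member of that family. In the mammary gland, Wnt signaling is best known for supporting basal and stem cell activity.

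Library totals ran from 27989137 to 49221436 counts. CPM below are counts divided by the TMM-scaled library size, listed in the order of the replicate numbers. The 7 basal markers summed to between 5342 and 19176 CPM in basal libraries and between 14.7 and 248 CPM in luminal libraries, and the 7 luminal markers were between 12044 and 18500 CPM in luminal libraries and at most 528 CPM in basal libraries, so the labels held in all 11. Some libraries stood apart. Mitochondrial transcripts took 37.5% of counts in basal TEB replicate 1 and 28.5% in luminal duct replicate 3, against 4.34% to 17.8% in the others. Basal duct replicate 2 had the highest summed markers of endothelial cells (175 CPM) and adipocytes (184 CPM, with Adipoq at 0), and luminal duct replicate 3 the highest of immune cells (187 CPM).

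**Figure D1:**
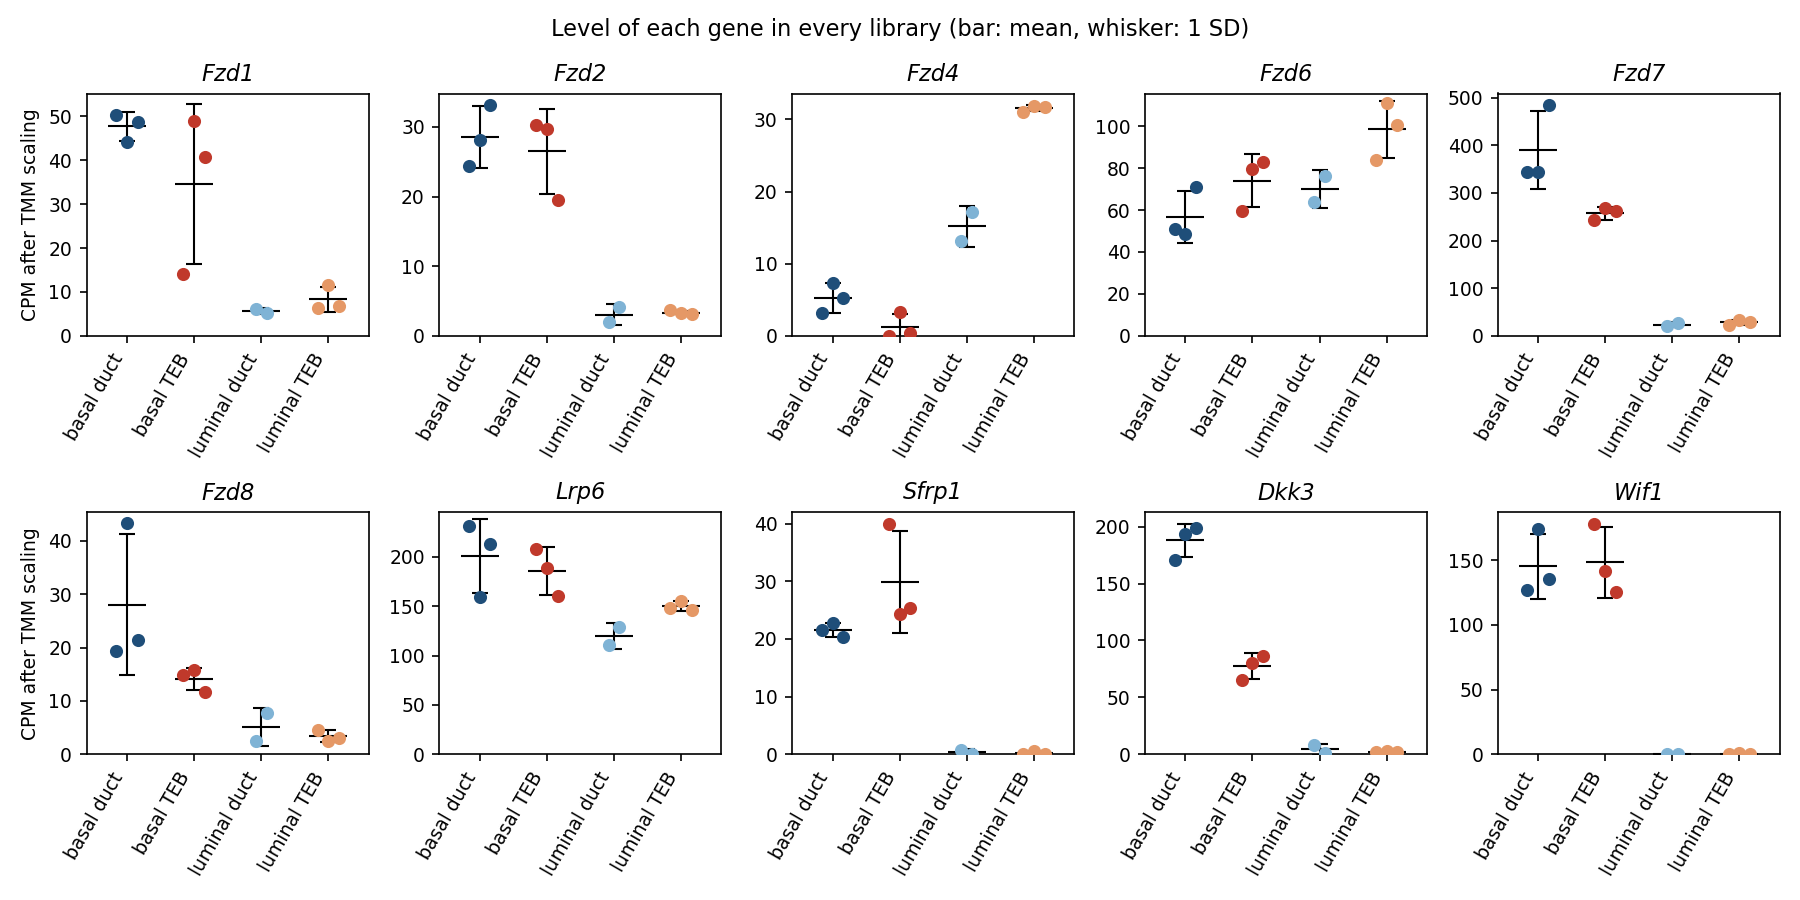
Level of each of the 10 genes, in CPM after TMM scaling on a linear axis from 0, in the 3 basal duct, 3 basal TEB, 2 luminal duct and 3 luminal TEB libraries. Points are libraries, the horizontal bar is the group mean and the whisker 1 SD; Fzd7 lay between 242 and 486 CPM in basal libraries and between 20.2 and 32.3 CPM in luminal libraries, whereas Fzd4 was highest in luminal TEBs at 31.1 to 31.8 CPM.

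Basal and luminal cells held most of these genes at different levels. Compared within ducts, 8 of the 10 members were higher in basal cells and 0 were lower, where 12.6% of all 17370 genes tested were higher and 9.71% lower in the quasi-likelihood test of edgeR, at a Benjamini-Hochberg FDR under 0.05. Within TEBs, 7 were higher in basal cells and 1, Fzd4, was lower, against 13.2% and 11.8% of all genes. The median log2 fold change of the members was 3.17 in ducts and 2.53 in TEBs, beside 0.08 and 0.04 over all genes. Counted by overlap alone, 8 members were higher in every basal than in every luminal library and 1 lower in ducts (24.8% and 21.2% of all genes), and 8 higher and 2 lower in TEBs (22.6% and 27.2%). In bulk samples fewer cells of a type and less RNA per cell cannot be told apart. The replicates are separate pools of mice.

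Fzd7 (chr1:59482147-59486955, mm10) was the leading receptor of basal cells. It measured 344, 343 and 486 CPM in basal ducts, 242, 268 and 262 CPM in basal TEBs, 20.2 and 26.9 CPM in luminal ducts and 22.5, 32.3 and 29.1 CPM in luminal TEBs. The lowest basal library was far above the highest luminal one. The difference was 16.6-fold in ducts (log2 fold change 4.06 ± 0.27, SE, edgeR quasi-likelihood FDR = 1.88e-06) and 9.21-fold in TEBs (3.20 ± 0.22, FDR = 9.02e-07). Luminal cells still held Fzd7 at 6.01% of the basal mean in ducts and 10.9% in TEBs.

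Fzd2 (chr11:102604431-102608058) and Fzd1 (chr5:4753839-4758216), which belong to the same branch of the family as Fzd7, were basal genes at lower levels. Fzd2 was 24.4, 28.1 and 33.2 CPM in basal ducts, 30.2, 29.7 and 19.5 CPM in basal TEBs, 1.96 and 4.07 CPM in luminal ducts and 3.63, 3.20 and 3.18 CPM in luminal TEBs. No luminal library reached a basal one, and the log2 fold change was 3.25 ± 0.45 in ducts (edgeR FDR = 0.000249) and 2.99 ± 0.37 in TEBs (FDR = 8.73e-05). Fzd1 was 50.3, 44.1 and 48.7 CPM in basal ducts, 14.1, 49.0 and 40.8 CPM in basal TEBs, 6.05 and 5.10 CPM in luminal ducts and 6.43, 11.7 and 6.74 CPM in luminal TEBs. Its one low basal value came from basal TEB replicate 1, the library with the highest mitochondrial share, and it too was above every luminal library. The log2 fold change of Fzd1 was 3.09 ± 0.51 in ducts (edgeR FDR = 0.000946) and 2.07 ± 0.42 in TEBs (FDR = 0.00304), and the latter was 2.43 without that library (FDR = 0.000134).

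Fzd8 (chr18:9212856-9216201) was a lower and more variable basal receptor. Its levels were 19.4, 43.3 and 21.4 CPM in basal ducts, 14.8, 15.7 and 11.7 CPM in basal TEBs, 2.57 and 7.65 CPM in luminal ducts and 4.57, 2.42 and 3.12 CPM in luminal TEBs. The groups of the 2 cell types did not overlap, with log2 fold changes of 2.46 ± 0.60 in ducts (edgeR FDR = 0.0107) and 2.06 ± 0.50 in TEBs (FDR = 0.00968). Without luminal duct replicate 1 the duct difference was 1.87 and no longer passed (FDR = 0.0592), and without luminal TEB replicate 2 the TEB difference was 1.85 (FDR = 0.0506), or 1.73 with the mitochondrial share as a covariate (FDR = 0.0615). The highest basal value was in basal duct replicate 2, where the 5 endothelial markers summed to 175 CPM against 8.48 and 16.3 CPM in the other 2. The higher luminal duct value was in replicate 3, whose 7 fibroblast markers summed to 259 CPM against 6.03 CPM in replicate 1. The part of other cell types in the Fzd8 values was not tested.

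Fzd6 (chr15:39006149-39038192), a receptor known for planar cell polarity, was shared by both cell types. It was 51.0, 48.5 and 71.1 CPM in basal ducts, 59.5, 79.6 and 82.8 CPM in basal TEBs, 63.7 and 76.5 CPM in luminal ducts and 83.7, 111 and 101 CPM in luminal TEBs. The duct groups overlapped, while in TEBs each luminal library was above each basal one by a small margin. The log2 fold change of basal against luminal cells was -0.30 in ducts (95% interval -0.80 to 0.20, edgeR FDR = 0.376) and -0.41 in TEBs (-0.86 to 0.04, FDR = 0.175).

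Fzd4 (chr7:89404366-89410110), the receptor that also binds the ligand norrin, was the exception among the Frizzleds. It was 3.11, 7.34 and 5.23 CPM in basal ducts, 0, 3.31 and 0.448 CPM in basal TEBs, 13.2 and 17.2 CPM in luminal ducts and 31.1, 31.8 and 31.8 CPM in luminal TEBs. Each luminal library was above each basal library in both structures, and the basal TEB library at 0 was replicate 1, in which a count of 0 allows up to 0.173 CPM. In TEBs the log2 fold change was -4.60 ± 1.04 (edgeR FDR = 0.00636), and -4.06 without that library (FDR = 0.00259). Without basal TEB replicate 2, the highest of the 3, it was -6.94. In ducts it was -1.54 ± 0.99 and did not pass (95% interval -3.70 to 0.63, FDR = 0.292). The annotated range of Fzd4 overlaps that of Tmem135, and the library kit did not keep strand. Whether any Fzd4 counts came from the shared stretch was not tested.

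Lrp6 (chr6:134446476-134566913), the coreceptor, was abundant in every library. Basal ducts had 231, 159 and 213 CPM, basal TEBs 208, 188 and 160 CPM, luminal ducts 110 and 129 CPM and luminal TEBs 149, 155 and 146 CPM. Basal libraries were above luminal libraries in both structures, by a narrow margin in TEBs. The log2 fold change was 0.75 ± 0.20 in ducts (edgeR FDR = 0.0185), and this call was lost without basal duct replicate 1 (0.64, FDR = 0.06) or luminal duct replicate 1 (0.64, FDR = 0.0967), with scaling by library size alone (FDR = 0.0674) and in a fit of the 2 duct groups (FDR = 0.0854). In TEBs it was 0.31 (95% interval -0.08 to 0.69, FDR = 0.233), and it turned to -0.12 under that scaling, which moved the median of all genes there to -0.35.

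**Figure D2:**
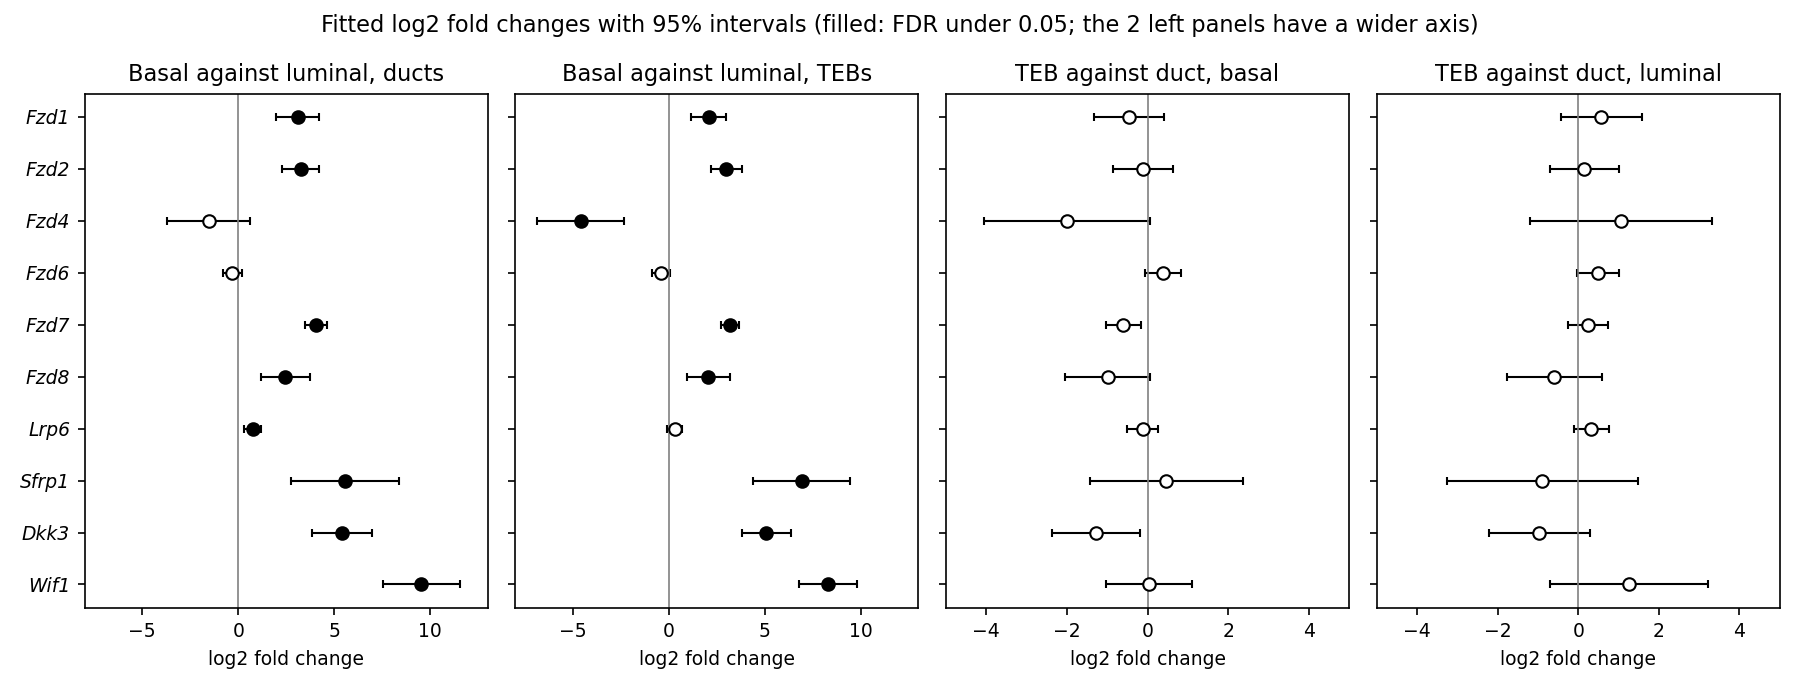
Fitted log2 fold changes (x axis) of the 10 genes with 95% intervals, in 4 comparisons from 1 edgeR model of all 11 libraries; filled points have an FDR under 0.05. In the 2 panels of basal against luminal cells 8 of 10 points are filled in each, all to the right of 0 but Fzd4 in TEBs, and in the 2 panels of TEB against duct, drawn on a narrower axis, 0 are filled.

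The secreted proteins were separated more sharply than the receptors. Wif1 (chr10:121034004-121100642) was 127, 174 and 135 CPM in basal ducts, 178, 141 and 125 CPM in basal TEBs, 0.0228 and 0.452 CPM in luminal ducts and 0.0673, 0.724 and 0.578 CPM in luminal TEBs. The luminal values rested on 12 counts in the 2 duct libraries and 71 in the 3 TEB libraries, against 18256 and 14280 counts in the basal groups. Its log2 fold change was 9.54 ± 0.93 in ducts (edgeR FDR = 2.02e-05) and 8.31 ± 0.69 in TEBs (FDR = 4.1e-06), larger in size than that of any other member in the model of all 11 libraries. The duct value was 8.32 without luminal duct replicate 1 and 12.5 without replicate 3, which leaves 1 luminal count.

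Dkk3 (chr7:112116019-112159482) was 171, 194 and 199 CPM in basal ducts, 64.9, 80.6 and 86.8 CPM in basal TEBs, 7.90 and 0.864 CPM in luminal ducts and 1.70, 3.12 and 2.02 CPM in luminal TEBs. Basal libraries were all above luminal ones, and the luminal duct pair was itself widely spread. The log2 fold change was 5.39 ± 0.72 in ducts (edgeR FDR = 0.000201) and 5.08 ± 0.59 in TEBs (FDR = 5.45e-05), and the former was 7.76 without luminal duct replicate 1 and 4.57 without replicate 3. Sfrp1 (chr8:23411383-23449632) was 21.6, 22.8 and 20.3 CPM in basal ducts, 40, 24.2 and 25.4 CPM in basal TEBs, 0.819 and 0.0411 CPM in luminal ducts and 0, 0.610 and 0.116 CPM in luminal TEBs. In luminal cells Sfrp1 rested on 37 and 38 counts in all, and the 0 of luminal TEB replicate 1 allows up to 0.0673 CPM. The log2 fold change of Sfrp1 was 5.55 ± 1.29 in ducts (edgeR FDR = 0.00851) and 6.91 ± 1.15 in TEBs (FDR = 0.000784). In ducts it was 8.93 without luminal duct replicate 1, which leaves 1 luminal count, and 4.71 without replicate 3, and in TEBs it was 8.85 without luminal TEB replicate 2.

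Markers of the basal lineage gave a scale for the low luminal values. The luminal mean of the 7 basal markers lay between 0.389% (Trp63) and 2.37% (Oxtr) of the basal mean in ducts, and between 0.221% (Acta2) and 2.07% (Oxtr) in TEBs. Wif1 was below that range in ducts, at 0.163%, and within it in TEBs, at 0.308%. Sfrp1, at 2.00% and 0.809%, was within it in both, and Dkk3 was within it in ducts (2.33%) and above it in TEBs (2.95%). Fzd7, Fzd2, Fzd1, Fzd8 and Lrp6 were above it in both structures, from 6.01% for Fzd7 in ducts to 80.7% for Lrp6 in TEBs. Whether basal cells in the luminal libraries supplied the low values was not tested. In the other direction, basal Fzd4 was 34.4% of its luminal mean in ducts and 3.96% in TEBs, where the 7 luminal markers lay between 0.493% and 7.10% and between 0.516% and 4.20%.

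**Figure D3:**
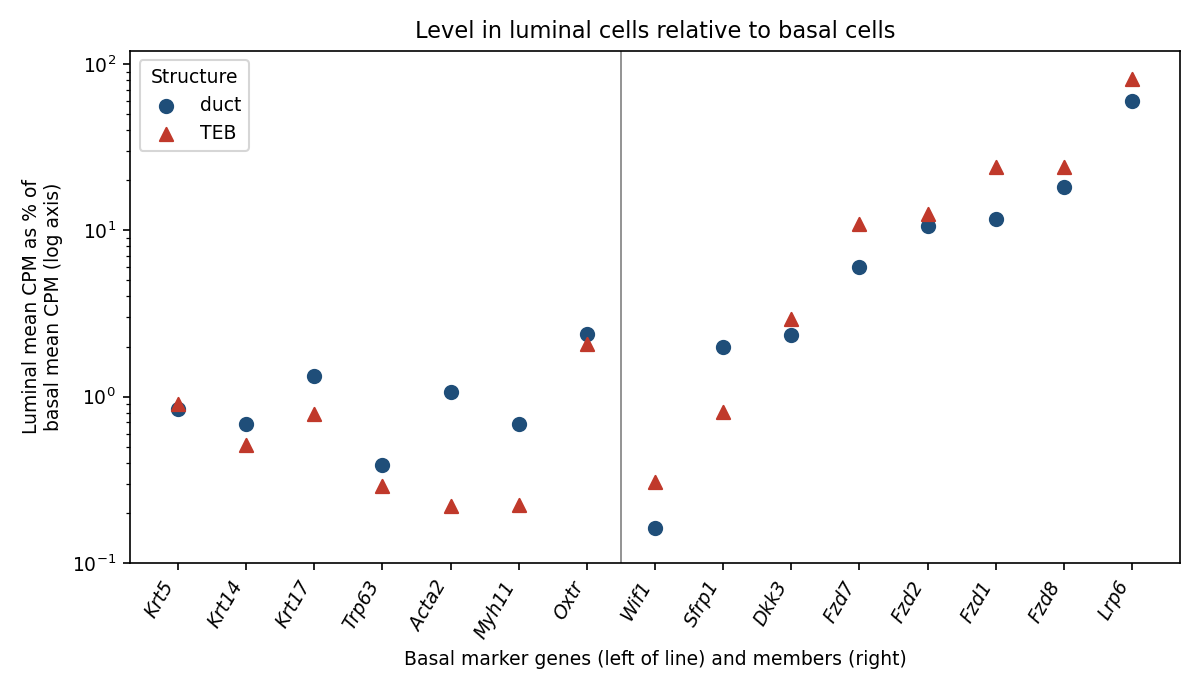
Luminal mean CPM as a percentage of the basal mean CPM (log axis) for 7 basal markers, left of the line, and for the 8 members with higher basal means, right of it, in ducts (circles) and TEBs (triangles). Wif1, Sfrp1 and Dkk3 lie at 0.163% to 2.95%, close to the markers at 0.221% to 2.37%, and the receptors and Lrp6 lie above them.

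The members' order of abundance, compared per kilobase of gene length, differed between basal ducts and luminal TEBs. In basal ducts Fzd7 led at 81.3 ± 17.0 CPM per kb (SD, n = 3), followed by Wif1 at 64.9 ± 11.2 and Dkk3 at 56.0 ± 4.43. These neighbors did not differ beyond their spread. Lrp6 at 21.5 ± 4.02 and Fzd6 at 13.7 ± 2.99 came next, then Fzd1 at 10.9 ± 0.74, Fzd8 at 8.38 ± 3.96 and Fzd2 at 7.88 ± 1.22. The spread of Fzd8 overlapped those of Fzd1 and Fzd2, which did not overlap each other. Sfrp1 at 4.93 ± 0.29 and Fzd4 at 1.42 ± 0.57 were last. In luminal TEBs the order was Fzd6 at 23.8 ± 3.33 CPM per kb, Lrp6 at 16.0 ± 0.53, Fzd4 at 8.56 ± 0.11 and Fzd7 at 5.81 ± 1.05, each apart from the next by more than their spreads. Fzd1 followed at 1.89 ± 0.67, and the other 5 were at 1.01 CPM per kb or less. The remaining groups had other orders. Basal TEBs were led by Wif1 at 66.2 ± 12.1 and Fzd7 at 53.5 ± 2.80, with overlapping spreads, then Dkk3 at 23.1 ± 3.37. Luminal ducts (n = 2) were led by Fzd6 at 16.9 ± 2.18 and Lrp6 at 12.8 ± 1.42. There Fzd7 at 4.89 ± 0.98 and Fzd4 at 4.12 ± 0.77 followed, with overlapping spreads.

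Set against all 10 mouse Frizzled genes, the receptor repertoire of basal cells was dominated by Fzd7 and that of luminal cells by Fzd6. Fzd7 supplied 55.6% ± 4.0 of the summed Frizzled CPM per kb in basal ducts (SD, n = 3) and 48.2% ± 3.69 in basal TEBs, but 12.9% ± 3.07 in luminal ducts (n = 2) and 11.7% ± 1.07 in luminal TEBs. Fzd6 supplied 9.39% ± 0.76, 15.9% ± 1.09, 44.5% ± 7.40 and 47.9% ± 2.33 in the same order. Fzd4 supplied at most 1.49% in any basal library, 9.13% and 12.6% in luminal ducts and between 16.1% and 18.9% in luminal TEBs. The summed Frizzled level was 134, 134 and 168 CPM per kb in basal ducts, 96.1, 122 and 117 in basal TEBs, 39.2 and 37.1 in luminal ducts and 44.5, 53.6 and 50.3 in luminal TEBs. Every basal library therefore held more Frizzled transcript per kb than any luminal one. These shares sum to 100% within a library and were not tested.

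**Figure D4:**
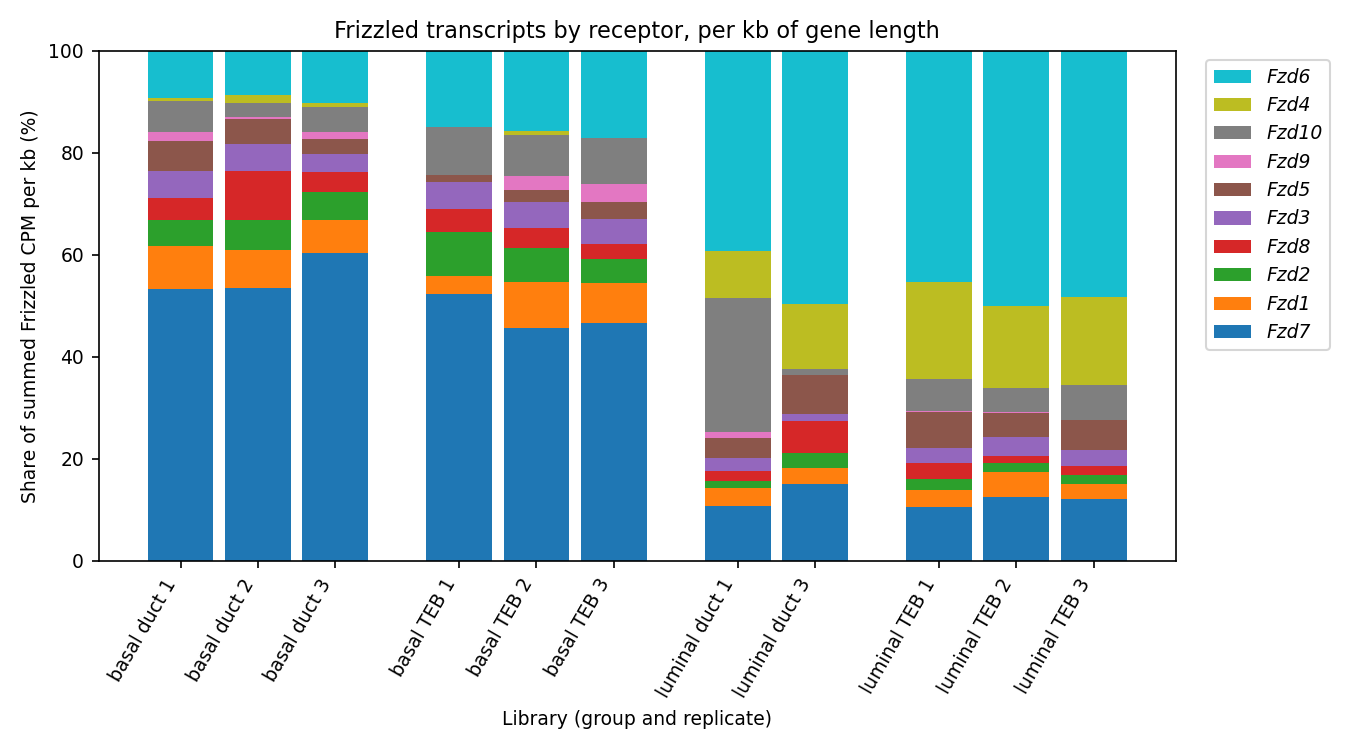
Share of each Frizzled gene in the summed CPM per kb of all 10 Frizzled genes (y axis, %), for each of the 11 libraries. Fzd7 fills 45.6% to 60.3% of each basal bar and 10.5% to 15% of each luminal bar, Fzd6 fills 39.3% to 50% of each luminal bar, and luminal duct replicate 1 differs from replicate 3 in its Fzd10 share (26.4% against 1.19%).

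Between TEBs and ducts of the same cell type, no member passed the test. In basal cells 0 of 10 were called by edgeR's quasi-likelihood test, where 1.32% of all genes were, with 2 members at an unadjusted p under 0.05. The likelihood ratio test and DESeq2 also called 0, and limma voom called 1, Dkk3. In luminal cells 0 were called, beside 1.41% of all genes, with 0 at an unadjusted p under 0.05 and 0 by each of the other 3 tools. The median log2 fold change of the members was -0.29 in basal cells and 0.29 in luminal cells, beside -0.03 and 0.04 over all genes.

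Dkk3 and Fzd7 had the lowest unadjusted p-values in basal cells. The 3 basal TEB libraries of Dkk3, at 64.9 to 86.8 CPM, were all below the 3 basal duct libraries, at 171 to 199 CPM, a log2 fold change of -1.28 ± 0.50 (edgeR FDR = 0.278). Fitted on the 2 basal groups alone, the fold change was -1.27 and passed (FDR = 0.0143), and without luminal duct replicate 1 or 3 it was -1.28 with an FDR of 0.0154 or 0.0149. Fzd7 was lower by -0.60 ± 0.20 (FDR = 0.198), again with no overlap between the groups. In all, 1 member lay higher in every basal TEB library (Sfrp1) and 3 lower (Dkk3, Fzd7 and Fzd8), beside 8.88% and 11.9% of all genes. Fzd4 was lower by -2.00 (FDR = 0.357), and by -4.37 without basal TEB replicate 2, which passed (FDR = 0.0325). Of the basal markers, 4 of 7 fell in basal TEBs, where 1.16% of all genes did. The 7 fibroblast markers, none of them called, summed to 432 to 856 CPM in basal ducts and 227 to 413 CPM in basal TEBs. Dcn was the highest of them, at a mean of 307 CPM in basal ducts and 143 CPM in basal TEBs. It was at 13.8 and 2.44 CPM in luminal ducts and TEBs. Each of the other markers, Col1a1 and Pdgfra among them, overlapped between the basal groups. The part of fibroblasts in the Dkk3 values was not tested. The basal difference of Wif1 was 0.03 (95% interval -1.04 to 1.09), with a sign that changed between scalings, and that of Lrp6 was -0.12 (-0.50 to 0.27).

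In luminal cells Fzd4 was nearly constant among TEB libraries, at 31.1 to 31.8 CPM, and both duct libraries were lower, at 13.2 and 17.2 CPM. Its log2 fold change was 1.06 ± 1.03 (95% interval -1.20 to 3.31, edgeR FDR = 0.636) in the model of all groups, which share 1 spread for the gene. Fitted on the 2 luminal groups alone it was 1.04 (FDR = 0.0494), and with the mitochondrial share as a covariate it was -1.18 (FDR = 0.798). Fzd1, Fzd4, Fzd6 and Lrp6 were higher in every luminal TEB library than in either duct library, and 0 members were lower throughout, where 26.2% and 17.4% of all genes were so placed. Luminal Dkk3 turned on 1 library: its log2 fold change was -0.97 with both ducts, -1.79 without replicate 3 (FDR = 0.0194) and 1.41 without replicate 1 (FDR = 0.0624).

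Whether the TEB-duct difference itself differed between basal and luminal cells was tested as an interaction. None of the 10 members passed by edgeR's quasi-likelihood test, where 0.443% of all genes did, 1 had an unadjusted p under 0.05, and the likelihood ratio test, DESeq2 and limma voom each called 0. Fzd7 had the lowest p, with a change in basal cells that was lower than that in luminal cells by -0.85 ± 0.30 on the log2 scale (FDR = 0.23). For Fzd4 the difference was -3.06 ± 1.41 (FDR = 0.342), and it passed without basal TEB replicate 2 (-5.41, FDR = 0.0408). The call on Dkk3 also turned on 1 library, at -0.31 (FDR = 0.904) in all libraries and -2.68 (FDR = 0.0131) without luminal duct replicate 1.

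A list of 11 further receptors and coreceptors included Smo, a Frizzled-class transducer of Hedgehog rather than Wnt, which was called in neither structure. Of the 11, 5 were higher in basal cells in ducts and 4 in TEBs, beside 12.6% and 13.2% of all genes. In both structures 0 were lower, beside 9.71% and 11.8%. Fzd3 was higher by 3.12 in ducts and 1.79 in TEBs on the log2 scale (edgeR FDR = 1.9e-05 and 0.000162). The coreceptor-like Lrp4 was higher by 3.30 and 2.55, and the planar polarity receptor Ptk7 by 2.03 and 1.35, where scaling by library size alone ended the TEB call (0.93, FDR = 0.0571). Fzd5 passed in ducts (1.53, FDR = 0.0277) but not without basal duct replicate 1 (FDR = 0.0896), basal duct replicate 2 (FDR = 0.0522) or luminal duct replicate 1 (FDR = 0.158). Ror1, a Wnt5a receptor, was higher by 2.55 in ducts (edgeR FDR = 0.0352) and by 3.17 in TEBs (FDR = 0.0047).

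Of 18 further secreted or extracellular inhibitors, 13 were tested, and 3 were higher and 1 lower in basal cells in each structure, beside 12.6% and 9.71% of all genes in ducts and 13.2% and 11.8% in TEBs. Sostdc1, which antagonizes BMPs and Lrp6, had 136 ± 17.5 CPM in basal ducts and 5.32 ± 2.23 CPM in luminal ducts. Its log2 fold change was 4.67 in ducts and 6.24 in TEBs (edgeR FDR = 3.58e-06 and 1.5e-07). Kremen1, a Dickkopf receptor, was higher by 2.74 and 2.22, and Igfbp4, a binding protein of insulin-like growth factors, by 6.16 and 8.87, the former 5.17 without luminal duct replicate 1 and 9.89 without replicate 3. Dkkl1, a Dickkopf-like protein, was instead luminal, with log2 fold changes of -7.94 and -7.64. Basal duct replicate 1 held 58 counts of Dkkl1 and the other 2 basal duct libraries 0 and 1, and without it the duct value was -12.6. Without basal TEB replicate 3 the TEB value was -8.85. Sostdc1 also fell in luminal TEBs against luminal ducts, from 6.90 and 3.74 CPM to 2.11, 1.64 and 1.77 CPM (-1.54, FDR = 0.0265), a call lost in 9 of 23 alternatives, among them without luminal duct replicate 1 (-1.02, FDR = 0.0675), without each luminal TEB library and with a replicate block (-1.40, FDR = 0.0548). In the same comparison 6 of 7 basal markers also fell, where 0.771% of all genes did, and the 7 summed to 93.0 and 248 CPM in luminal ducts and 14.7 to 27.3 CPM in luminal TEBs. Their part in the Sostdc1 values was not tested.

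Of 22 transduction genes, which act inside the cell, 5 were higher and 3 lower in basal than in luminal ducts, beside 12.6% and 9.71% of all genes. In TEBs 6 were higher and 3 lower, beside 13.2% and 11.8%, and the shares of lower genes were near those of all genes. Tcf7l1 and Tcf7, DNA-binding partners of beta-catenin, were higher by 4.58 and 2.88 in ducts and by 4.25 and 4.31 in TEBs, and Dvl2, a Dishevelled, by 1.92 and 1.08, where scaling by library size alone ended the TEB call (0.67, FDR = 0.192). A second Dishevelled, Dvl1 (-1.30 and -0.83), the scaffold Apc (-2.27 and -1.34) and the kinase Csnk1e (-0.75 and -0.91) were lower in basal cells. The Csnk1e duct call was lost without any 1 of the basal duct libraries, the luminal TEB libraries or luminal duct replicate 3, with FDRs from 0.0584 to 0.259. The Apc TEB call was lost without basal TEB replicate 1 (FDR = 0.064), basal TEB replicate 3 (FDR = 0.0878) or luminal TEB replicate 1 (FDR = 0.106), and with the mitochondrial share as a covariate (-0.72, FDR = 0.365). The Apc duct value was -1.17 without luminal duct replicate 1 and -2.88 without replicate 3. Pygo1, a coactivator of beta-catenin, was at 0 counts in both luminal duct libraries, so that basal ducts were at least 53.8-fold higher and luminal TEBs at least 9.14-fold higher against the mean limit of a count of 0 (0.0958 CPM). Its call between luminal TEBs and ducts (edgeR FDR = 0.0258) was lost in 9 of 23 alternatives, among them without luminal duct replicate 3 (FDR = 0.059), without each luminal TEB library and with a replicate block (FDR = 0.0675).

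Of 10 common beta-catenin targets, 8 were tested, 6 of them higher and 1 lower in basal cells in each structure, beside 12.6% and 9.71% of all genes in ducts and 13.2% and 11.8% in TEBs. Tcf7, among the 6 in each structure, and Lef1 were also listed as transduction genes, so the counts of the lists share them. Axin2, a feedback scaffold and general reporter of the pathway, was 31.8, 25.8 and 23.9 CPM in basal ducts, 24.8, 27.1 and 28.2 CPM in basal TEBs, 0.0228 and 0.164 CPM in luminal ducts and 1.82, 2.63 and 1.75 CPM in luminal TEBs. It was higher in basal cells by 8.35 in ducts and 3.69 in TEBs (edgeR FDR = 8.9e-06 and 7.15e-05), and higher in luminal TEBs than in luminal ducts by 4.63 (FDR = 0.0095), a call lost in 3 of 23 alternatives, none of which left out 1 library. Those 2 luminal duct libraries held 1 and 4 counts, and the duct difference was 7.34 without replicate 1 and 10.04 without replicate 3, that between luminal structures 3.63 and 6.33. Of the feedback inhibitors Nkd1 and Nkd2, Nkd1 had 9952 counts in basal ducts and 3 in luminal ducts. Within TEBs, Nkd1 was higher by 7.17 in basal than in luminal cells. Its basal mean was 75.6 ± 27.6 CPM in ducts and 29.0 ± 9.15 CPM in TEBs (SD), a difference that was not called. Nkd2 was higher by 6.68 in basal than in luminal ducts, or 9.71 without luminal duct replicate 1 and 5.90 without replicate 3. Cd44, a hyaluronan receptor, was higher by 2.16 in ducts and 1.76 in TEBs. Ccnd1, cyclin D1, was the luminal exception (-2.91 and -2.14). It was also higher in basal TEBs, at 264, 169 and 189 CPM, than in basal ducts, at 46.5, 62.9 and 77.8 CPM (1.73 ± 0.23, FDR = 0.00374). Ccnd1 was the only 1 of the 8 targets called higher there, and 0 were lower, beside 0.167% and 1.16% of all genes. Myc, not called, went the other way, from 420 ± 97.6 CPM in basal ducts to 208 ± 28.4 CPM in basal TEBs (SD), without overlap. The median log2 fold change of the 8 between basal structures was -0.20, beside -0.03 over all genes.

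Genes with the closest profile were sought for each member among those averaging at least 4 in log2 CPM. Over the 11 libraries the Pearson correlation of log2 CPM was 0.998 between Fzd7 and Nhsl1, 0.996 between Wif1 and Rnase4, 0.995 between Fzd2 and Spry1 and 0.993 between Dkk3 and Pdk4. Fzd4 was closest to Sh3bp4 (0.984), Fzd1 to Palmd (0.983), Sfrp1 to Ctnnd2 (0.981), Fzd8 to Gpsm1 (0.974), Lrp6 to Plxnb1 (0.966) and Fzd6 to Nono (0.929). Among the members, Fzd7 correlated with Wif1 and with Fzd2 at 0.982 each, and Fzd4 with Fzd7 at -0.643. The libraries behind these values are shared, and the basal and luminal clusters set most of the range, so the values are descriptions only.

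The 250 bases before the annotated start were read for 4 of the 10 members from RefSeq (GRCm38.p6). Those of Fzd7 and Wif1, which moved together across libraries, and of Fzd4, which went the other way, are shown for comparison, 5′ to 3′ on the plus strand, which these genes share, at chr1:59481897-59482146, chr10:121033754-121034003 and chr7:89404116-89404365. Capitals mark matches, on either strand and counted also where they overlap, to the Sp1 box GGGCGG, the NF-Y box CCAAT and the TATA box TATAAA. The core of Tcf and Lef sites CTTTGAT was searched too.
Fzd7: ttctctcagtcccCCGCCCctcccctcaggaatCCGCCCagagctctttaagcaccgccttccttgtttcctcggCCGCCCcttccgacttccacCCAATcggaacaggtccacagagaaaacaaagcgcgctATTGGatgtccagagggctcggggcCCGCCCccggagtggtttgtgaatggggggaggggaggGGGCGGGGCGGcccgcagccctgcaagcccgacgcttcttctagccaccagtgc
Wif1: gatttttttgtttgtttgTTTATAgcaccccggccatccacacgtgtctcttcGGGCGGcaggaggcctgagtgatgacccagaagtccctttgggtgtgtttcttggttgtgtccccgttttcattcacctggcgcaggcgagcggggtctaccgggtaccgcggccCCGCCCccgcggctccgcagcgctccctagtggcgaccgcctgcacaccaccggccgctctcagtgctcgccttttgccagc
Fzd4: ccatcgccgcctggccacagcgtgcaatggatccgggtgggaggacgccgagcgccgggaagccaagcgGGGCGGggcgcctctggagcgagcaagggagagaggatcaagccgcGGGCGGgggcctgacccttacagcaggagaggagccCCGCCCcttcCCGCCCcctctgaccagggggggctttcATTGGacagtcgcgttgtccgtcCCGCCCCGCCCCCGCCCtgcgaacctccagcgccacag
GGGCGG was found 6 times before Fzd7, 2 times before Wif1 and 7 times before Fzd4, and 32.7% of 32851 promoters of this length held it. CCAAT was found 2 times before Fzd7, 0 times before Wif1 and once before Fzd4, beside 33.8% of all promoters, and TATAAA once before Wif1 and 0 times before Fzd7 and Fzd4, beside 12.4%. The window of Fzd1, the fourth one read and not shown, held TATAAA once, GGGCGG and CCAAT 0 times, and 51.2% GC. CTTTGAT, held by 3.21% of all promoters, was in none of the 4. The windows of the other members were not searched, so its absence is not known for them. The GC content was 65.2% before Fzd7, 62.8% before Wif1 and 72.8% before Fzd4, with a median of 52.4% over all promoters. A match describes the letters only.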

How the data were processed

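RNA-seq libraries were prepared by the authors with an unstranded kit (TruSeq RNA v2) from sorted cells, and 80 bp paired-end reads were aligned to mm10 and assigned to Entrez genes with featureCounts. The deposited values are these raw counts per gene, whole and not normalized. The authors left out 1 luminal duct sample that had too few cells. Of 27179 identifiers, 25275 had a symbol, and 0 columns were left unused.

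Counts were analyzed in R 4.3.3 with edgeR 4.0.16. After filterByExpr, at its minimum count of 10 and minimum total of 15, 17370 genes were scaled by TMM and fitted in 1 model of 4 groups. Comparisons used the quasi-likelihood F test with Benjamini-Hochberg adjustment over all genes tested, at FDR under 0.05. The SE of a log2 fold change was its size over the root of F. Levels per kb use the gene length in the file. Library totals of 27989137 to 49221436 put the limit of a count of 0 (3 counts) at 0.0572 to 0.173 CPM, for counting error only. Steps were tested on simulated data.

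All 10 members were tested and are named. Of the pathway lists, genes called between TEBs and ducts were named, and up to 4 with the lowest FDR per list and direction between cell types. The members and lists were chosen with earlier results of these data known. Alternatives were another normalization, filters, the likelihood ratio test, DESeq2 1.42.0, limma voom (limma 3.58.1), fits on the groups compared alone, a replicate block, removal or adjustment of mitochondrial counts, and leaving out each library.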

Additional observations from a re-analysis of the deposited data

Results flagged for a closer look

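Axin2, the feedback scaffold of the pathway, differed between the cell types in how it changed from duct to TEB, by a test of that difference itself: the log2 change in basal cells minus that in luminal cells was -4.66 ± 0.75 (edgeR quasi-likelihood interaction, FDR = 0.0253). Basal levels were 23.9 to 31.8 CPM in ducts and 24.8 to 28.2 CPM in TEBs and overlapped. The 2 luminal duct libraries held 1 and 4 counts and the 3 luminal TEB libraries 81, 138 and 91. The difference kept its sign in all 22 alternatives, from -6.36 to -3.65, and was lost in 9 of them, with FDRs from 5.29e-07 to 0.282. Libraries whose removal ended the call were basal duct replicate 1 (FDR = 0.0848), basal TEB replicate 3 (FDR = 0.0778) and luminal TEB replicates 1, 2 and 3 (FDR = 0.0627, 0.066 and 0.063). It was also lost with a replicate block (-4.62, FDR = 0.0628).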

How the results depend on the processing

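Members called between basal and luminal cells numbered 6 to 8 in ducts and 7 to 8 in TEBs over 23 alternatives each. Between basal TEBs and ducts 1 member in place of 0 was called by limma voom, in the 2 groups alone and with both libraries of highest mitochondrial share left out (Dkk3, -1.25, -1.27 and -1.16). In luminal cells 1 was called in the 2 groups alone (Fzd4) and with both libraries left out (Dkk3, -1.77, which leaves 1 luminal duct library assumed to vary like the rest). Leaving out 1 library gave 0 to 1 calls in these comparisons and in the interaction. The labels do not say whether libraries with the same replicate number came from the same mice. Of 15 same-numbered pairs, 4 correlated above 0.1 (range -0.07 to 0.16), which cannot settle it. A replicate block left 0, 0, 8, 8 and 0 members called in the 5 comparisons, as without it, and ended the luminal TEB calls of Sostdc1 (-1.40, FDR = 0.0548) and Pygo1 (FDR = 0.0675).

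Some uncalled values changed sign. Basal Wif1 between TEB and duct was -0.011 with DESeq2 size factors, -0.01 with a stricter filter or DESeq2, -0.15 by library size alone, -0.017 without mitochondrial genes, -0.16 with their share as a covariate and -0.12 without both libraries. With that covariate, luminal Fzd1 and Fzd4 were -0.14 and -1.18, and the interactions of Fzd6 and Dkk3 were 0.037 and 0.52. Without both libraries, luminal Fzd8 was 0.40 and the Dkk3 interaction 0.61. Lrp6 in TEBs was -0.12 by library size alone, which moved the median of all genes to 0.42 between luminal structures and -0.16 between basal ones. The cause was not tested. Leaving out 1 library gave, for basal TEB against duct, Wif1 -0.12 to 0.18 and Fzd2 -0.26 to 0.069. For luminal cells it gave Fzd2 -0.28 to 0.77, Fzd8 -1.18 to 0.39, Sfrp1 -2.86 to 2.50 and Dkk3 -1.79 to 1.41. For the interaction it gave Fzd2 -0.88 to 0.17, Fzd6 -0.25 to 0.082, Fzd8 -1.38 to 0.19, Sfrp1 -2.03 to 3.30 and Dkk3 -2.68 to 0.51. Not divided by length, shares were 14.3% for Fzd4 in luminal TEBs, and 7.94%, 13.8% and 44.1% for Fzd6 in basal ducts, basal TEBs and luminal TEBs. Genes called over all ranged from 57 to 874 between basal structures, 10 to 1305 between luminal structures, 2728 to 5122 between cell types in ducts and 2935 to 5391 in TEBs, and 0 to 753 in the interaction. Of 1140 member values, 34 changed sign, 11 gained and 7 lost a call. With 2 luminal duct libraries, and Wif1 and Sfrp1 at few counts there, luminal differences between structures are the least precise.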

Other observations

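Fzd10 differed widely between the luminal duct libraries, with 30.9 CPM (1359 counts) in replicate 1 and 1.32 CPM (32 counts) in replicate 3. Luminal TEBs held 8.36, 7.56 and 10.3 CPM and basal TEBs 27.2, 29.4 and 31.2 CPM. It passed no comparison, and it was singled out after its values were seen. Fzd5, also singled out in that way, was 54.9, 43.7 and 34.1 CPM in basal ducts and 8.89, 21.2 and 25.9 CPM in basal TEBs, with no overlap (log2 fold change -1.24 ± 0.38, edgeR quasi-likelihood FDR = 0.166), and its luminal levels of 11 to 21.6 CPM were within the range of the basal TEB libraries.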
